A study of Mus musculus with 6 samples.

Results

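The nuclear genes of the mitochondrial respiratory chain and of the ATP synthase were followed in whole hearts of WT mice and of TG-PKR1 mice. The TG-PKR1 mice overexpress PKR1, a receptor for prokineticins, from the alpha myosin heavy chain promoter, which is specific to cardiomyocytes. All animals were males aged 12 weeks, with 3 hearts in each group and 1 single-dye Agilent array for each heart. The members were the probes other than controls whose gene name in the scanner files begins with Ndufa, Ndufb, Ndufc, Ndufs, Ndufv, Sdha to Sdhd, Uqcr, Cox4 to Cox8 or Atp5. This rule used names alone and no measured value. It found 116 probes of 83 genes among 41174 probes of 27745 gene names. Complex I had 38 genes, complex II had 4, complex III had 7, complex IV had 18 and complex V had 16. Of the 83 genes, 78 encode subunits. The other 5, Ndufaf1, Ndufa12l (now Ndufaf2), Cox4nb (now Emc8), Cox7a2l and Atp5s (now Dmac2l), carry a matching name but are assembly factors, a neighbouring gene or accessory proteins.

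The respiratory chain passes electrons from NADH (complex I) and succinate (complex II) through ubiquinone to complex III, by cytochrome c to complex IV, and then to oxygen. Complexes I, III and IV pump protons across the inner membrane, and complex V, the ATP synthase, lets them flow back to make ATP. Cardiomyocytes are packed with mitochondria, and heart and skeletal muscle use their own isoforms of several small subunits of complex IV in addition to the ubiquitous ones. Brown adipocytes also hold many mitochondria, where Ucp1 dissipates the proton gradient as heat.

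Each value below is the log2 median signal of a probe after normalization by loess, a smooth curve that fits each array to the median profile of the 6 arrays. The 20000 probes with the highest median signal were tested, and 107 member probes of 81 genes were among them. Of the 9 member probes not tested, 7 had a second probe of the same gene that was tested. Cox4i2 and Cox8c, isoforms of complex IV found mainly in other tissues, had no tested probe. Of the 107 probes, 106 were well above background on all 6 arrays by the scanner software's own test, and none held a saturated spot. The other, a probe of Atp5j2, was well above background on 3 arrays. The probes of Ndufa9, Atp5g2 and Atp5b that lacked a value in TG replicate A had been marked as outlier spots there, and their differences rest on the other 5 hearts. Replicate letters name the hearts and carry no pairing. The labels do not say whether the hearts of a group came from separate litters or RNA preparations, so p-values measure only the spread between these hearts. In whole hearts, fewer cells of a type and less RNA per cell cannot be told apart.

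For WT replicate A, TG replicate B and TG replicate C the scanner had used an extended range, in which bright spots are read from a second scan at lower gain, and the remaining 3 arrays were scanned once. The signal at the 75th percentile was 11.4 to 14.1 times the local background on the extended-range arrays and 2.08 to 3.97 times on the single-scan arrays. WT replicate B and TG replicate A lay on the same slide. The list of 12 cardiomyocyte genes was measured in full, with 19 probes, a median difference of 0.09 and a summed signal of 1108490 to 1529970 in WT hearts and 1097850 to 1876580 in TG-PKR1 hearts. Of its probes, 18 were higher on average in TG-PKR1 hearts under each of the 6 scalings tried, and 0 passed the test. Under loess, 58.2% of all probes were higher. The median difference of the list was 0.09 to 0.31 under these scalings. Its medians in single hearts, relative to the WT mean of each probe, overlapped. For replicates A, B and C they were 0.13, -0.04 and -0.18 in WT hearts and 0.40, -0.17 and 0.15 in TG-PKR1 hearts. The Prokr1 probe, which measures the PKR1 transcript, was well above background on 0 of 6 arrays, so the genotypes could not be checked by it.

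None of the 107 member probes differed between TG-PKR1 and WT hearts after adjustment. By limma with Benjamini-Hochberg adjustment over all 20000 probes, 0 members were lower and 0 were higher at an adjusted p under 0.05, and the smallest adjusted p of a member was 1.0. Over all probes tested, 19 were lower, which is 0.095%, and 0 were higher, which is 0%. SAM, the permutation-based test named in the study's methods, called 0 members and 54 probes in all. At an unadjusted p under 0.05, 1 member was lower against 1.66% of all probes, and 0 were higher against 0.715%. Of the 107 probes, 51 were higher on average in TG-PKR1 hearts, or 47.7% against 58.2% of all probes. Their median log2 difference of TG-PKR1 minus WT was -0.00, against 0.03 over all probes, and it ranged from -0.49 for Cox6a1 to 0.39. The absolute difference was under 0.2 log2 units for 92 probes, or 86%, against 77.4% of all probes.

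**Figure D1:**
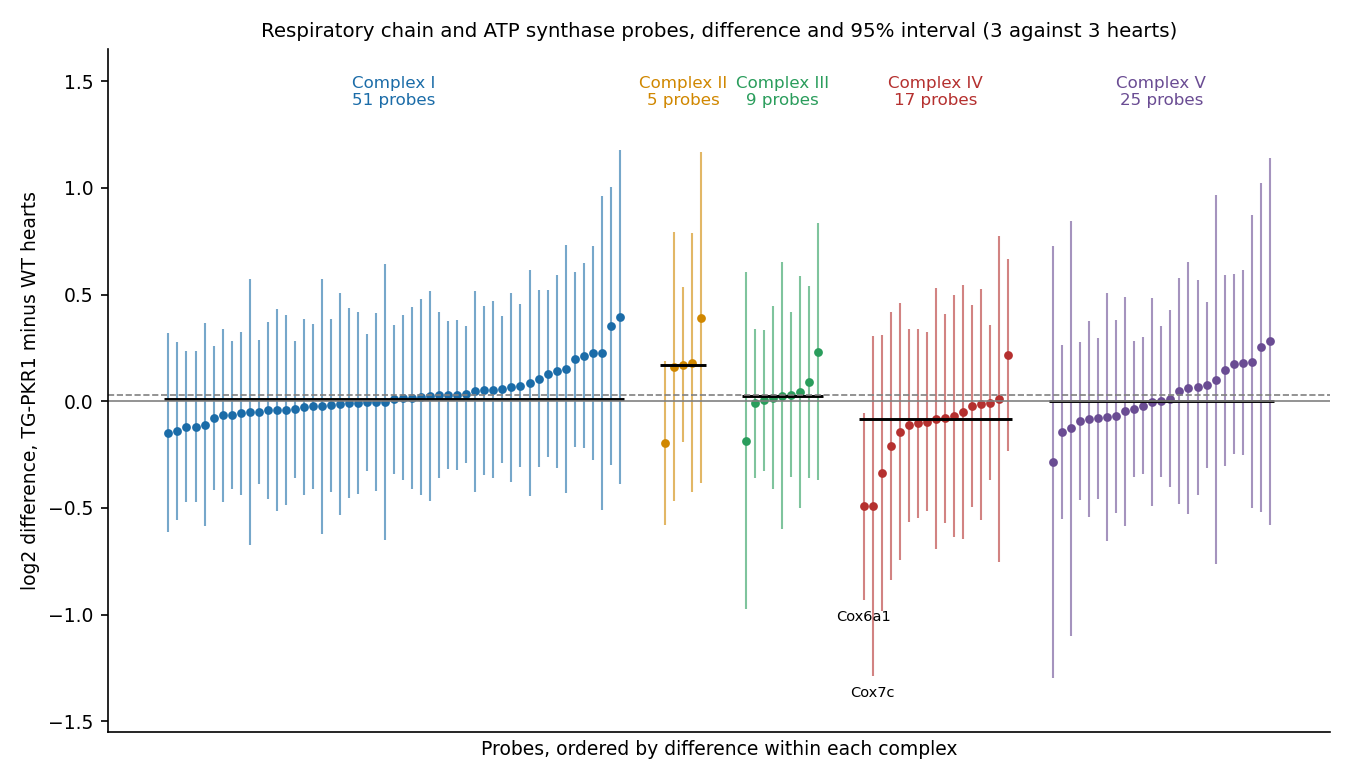
Log2 difference between TG-PKR1 and WT hearts for each of the 107 tested probes, ordered within its complex (vertical lines, 95% intervals from limma, 3 against 3 hearts; black lines, median of the complex; dashed line, median of all 20000 probes). Every interval includes 0 except that of Cox6a1, and most points lie within 0.2 log2 units of 0.

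The intervals show how large a change these 6 hearts could have missed. The median half-width of the 95% interval was 0.45 log2 units for the members and 0.42 for all probes. The interval lay within 1 log2 unit of 0 on both sides for 99 of 107 probes, against 94.3% of all probes, so that for these a change of 2-fold or more lay outside the interval. It lay within a 1.5-fold change for 65. Smaller changes of single subunits could not be resolved with 3 hearts in each group. The wider intervals included those of Ndufa11, the second probe of Sdha, Cox7c, Atp5g3 and the 3 probes of Atp5b.

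Most members gave bright signals, which matters for the scaling of the arrays. The mean signal was above 13 log2 units for 84 of the 107 probes, whereas 864 of the 20000 probes were that bright. Signals of different probes are not comparable as amounts of transcript, so this describes the range of the scanner in which the members were read. With a single scaling factor for each array (its 75th percentile) in place of loess, the members' median rose from -0.00 to 0.21 and 96 of 107 were higher on average in TG-PKR1 hearts. The 780 equally bright probes of other genes moved in the same way, from 0.00 to 0.20, with 92.7% higher, against 0.22 for the 84 bright members. The median over all probes was -0.02 under that scaling, and 0 members and 0 other probes passed the test.

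**Figure D2:**
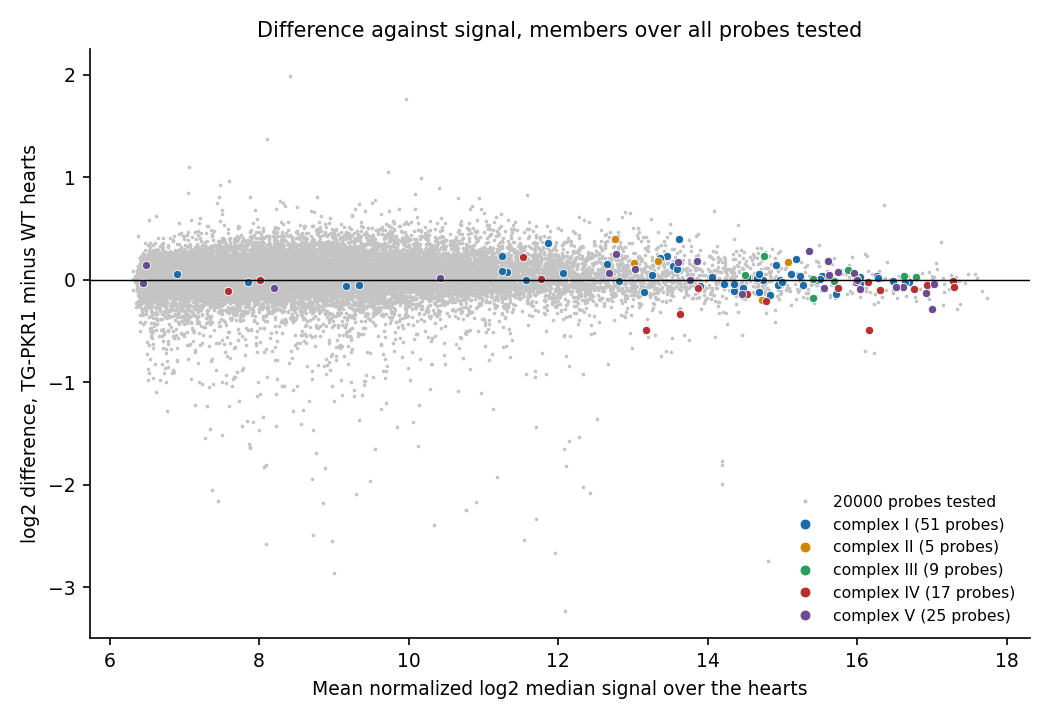
Log2 difference between TG-PKR1 and WT hearts against the mean normalized log2 signal, for 20000 probes (grey) and the 107 members (coloured by complex). The members gather at signals above 13 and lie between -0.49 and 0.39, while the grey probes reach -3.23.

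Complex I, NADH dehydrogenase, is the largest complex of the chain and had 51 tested probes of 38 genes. Their median difference was 0.01, with 26 higher and 25 lower in TG-PKR1 hearts and 0 past the test. The N module, which oxidizes NADH, had a median of -0.00 over 11 probes (range -0.12 to 0.23), and its highest value was that of Ndufv2, a subunit with an iron-sulfur cluster. The Q module, which reduces ubiquinone, had a median of 0.05 over 9 probes. The membrane arm, which moves the protons, had a median of 0.00 over 28 probes (range -0.15 to 0.35).

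Ndufa11, a membrane arm subunit, read 11.76, 12.14 and 11.16 in WT hearts, in the order of replicates A, B and C used throughout, and 11.75, 12.50 and 11.87 in TG-PKR1 hearts at the probe on chromosome 17 of mm8 (56402942 to 56403001), a difference of 0.35 (SE 0.29). Its other probe, 10 bases away, gave 0.23. Ndufa7, a Q module subunit, read 13.30, 13.46 and 13.01 in WT hearts and 13.22, 13.72 and 13.47 in TG-PKR1 hearts, a difference of 0.21 (SE 0.19). At these probes of both genes WT replicate C was the lowest heart, and the groups overlapped. The other probe of Ndufa7 gave -0.04 (SE 0.20), and there TG replicate C was the lowest heart.

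Ndufa9, a Q module subunit, was the only member whose measured TG-PKR1 hearts all lay above the WT hearts. Its value in TG replicate A was missing, and 2 hearts separate from 3 more readily than 3 hearts do. The share of 2.68% over the probes with all 6 values is therefore not a like comparison. It read 15.17, 14.93 and 15.16 in WT hearts and 15.20 and 15.37 in TG replicates B and C. The margin between the highest WT and the lowest TG-PKR1 heart was smaller than the spread within either group, and the difference was 0.20 (SE 0.18, limma unadjusted p = 0.299). At the other end, Ndufab1, the mitochondrial acyl carrier protein, read 14.61, 15.05 and 15.08 in WT hearts and 14.59, 15.10 and 14.60 in TG-PKR1 hearts at its lowest probe, a difference of -0.15 (SE 0.20). Ndufa4, named for complex I and later assigned to complex IV, read 15.65, 16.08 and 15.63 in WT hearts and 15.62, 15.85 and 15.48 in TG-PKR1 hearts, a difference of -0.14 (SE 0.18).

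Complex II, succinate dehydrogenase, is shared with the tricarboxylic acid cycle and had 5 tested probes of 4 genes. Of these, 4 were higher on average in TG-PKR1 hearts, with a median of 0.17 against 0.03 over all probes and 0 past the test. Sdha, the flavoprotein that oxidizes succinate, read 13.73, 12.88 and 13.14 in WT hearts and 13.71, 12.99 and 13.58 in TG-PKR1 hearts at the probe on chromosome 13 (74788700 to 74788759). Its second probe, on the same chromosome (74794310 to 74794369), read 13.19, 12.07 and 12.42 in WT hearts and 13.33, 12.33 and 13.20 in TG-PKR1 hearts. At both probes WT replicate A lay with TG replicates A and C at the top, and TG replicate B lay among the lower WT hearts. The differences were 0.18 (SE 0.27) and 0.39 (SE 0.34). Another tested probe of Sdha, listed under an older clone name and so not counted among the members, gave 0.04.

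Sdhb, the iron-sulfur subunit, read 15.100, 14.826 and 15.040 in WT hearts and 15.337, 15.001 and 15.143 in TG-PKR1 hearts, a difference of 0.17 (SE 0.16). Sdhc, a membrane anchor, read 13.33, 12.31 and 13.15 in WT hearts and 13.30, 12.77 and 13.21 in TG-PKR1 hearts, a difference of 0.16 (SE 0.28). For these too the groups overlapped, and WT replicate B was the lowest heart. Sdhd, the other anchor, went the other way, with 14.59, 14.79 and 15.08 in WT hearts and 14.58, 14.73 and 14.57 in TG-PKR1 hearts, a difference of -0.20 (SE 0.17) in which 1 WT heart overlapped the TG-PKR1 hearts. The median of complex II differed with the hearts compared: it was -0.00 without WT replicate B, -0.34 within the 3 extended-range arrays and 0.57 within the 3 single-scan arrays.

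Complex III, the cytochrome bc1 complex, had 9 tested probes of 7 genes, a median difference of 0.03, 7 higher and 2 lower in TG-PKR1 hearts, and 0 past the test. Uqcrc1, a core protein, had the highest difference, with 14.92, 14.37 and 14.60 in WT hearts and 15.24, 14.30 and 15.05 in TG-PKR1 hearts (0.23, SE 0.26). Uqcrfs1, the Rieske iron-sulfur protein that carries electrons to cytochrome c1, had the lowest, with 15.22, 16.25 and 15.03 in WT hearts and 15.32, 15.77 and 14.86 in TG-PKR1 hearts (-0.18, SE 0.35). Replicate B of each genotype was the lowest heart of its group for Uqcrc1 and the highest for Uqcrfs1, and the groups overlapped for both. The 5 probes of small subunits lay between -0.01 and 0.04.

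Complex IV, cytochrome c oxidase, had 17 tested probes of 16 genes, and 15 of them were lower on average in TG-PKR1 hearts, with a median of -0.08 and 0 past the test. This lean was not independent of the scaling: 12 of the 17 probes were higher when arrays were scaled to the 75th percentile, and 8 were higher with normexp background correction and quantile normalization. It also rested on single hearts, since 10 of 17 were higher without WT replicate B and 9 of 17 without TG replicate C, against 2 of 17 with all 6 hearts. The hearts overlapped for 16 of the 17 probes.

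Cox6a1, the ubiquitous isoform of subunit 6A, was the tested member with the smallest p and the only one with all 6 values whose groups did not overlap. Its probe, on chromosome 5 of mm8 (115606716 to 115606775), read 16.13, 16.76 and 16.31 in WT hearts and 16.06, 15.83 and 15.84 in TG-PKR1 hearts. Every TG-PKR1 heart lay below every WT heart, with TG replicate A just under WT replicate A. The difference was -0.49 (SE 0.19, 95% interval -0.93 to -0.05), a mean ratio of 0.711. The limma p was 0.0321 before adjustment and 1.0 after it, and the exact permutation p was 0.1, the smallest that 3 against 3 hearts allow. Complete separation in this direction occurred in 2.73% of the tested probes with all 6 values, and 1 of the tested members had it. The separation held under the mean signal, the processed signal, quantile normalization and normexp, where the difference was -0.52 to -0.34, and it was lost with scaling to the 75th percentile, where the hearts overlapped and the difference was -0.26. The difference was -0.31 without WT replicate B and -0.30 within the extended-range arrays.

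Cox6a2, the form of the same subunit in heart and skeletal muscle, read 17.17, 17.80 and 16.91 in WT hearts and 17.50, 17.20 and 17.14 in TG-PKR1 hearts, a difference of -0.01 (SE 0.24). Here the TG-PKR1 hearts lay inside the range of the WT hearts. The log2 ratio of Cox6a2 to Cox6a1, set to a mean of 0 over the WT hearts, was 0.15, 0.14 and -0.29 in WT hearts and 0.55, 0.48 and 0.40 in TG-PKR1 hearts. Each TG-PKR1 heart lay above each WT heart, with a difference of 0.48 and a two-sided exact permutation p of 0.1, or 0.3 after Benjamini-Hochberg adjustment over the 3 isoform pairs compared. Leaving out each heart in turn gave 0.33 to 0.55, and the extended-range arrays alone gave 0.29.

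For subunit 7A the pattern was not seen. Cox7a1, the heart and muscle form, read 17.11, 17.87 and 17.00 in WT hearts and 17.52, 17.19 and 17.06 in TG-PKR1 hearts (-0.07, SE 0.25). Cox7a2, the ubiquitous form, gave -0.21 (SE 0.28) and -0.08 (SE 0.27) at probes 12 bases apart. The contrast of the pair was 0.08 (exact permutation p = 0.8), with overlapping hearts, and it turned to -0.20 without TG replicate A. Cox7a2l, a paralog that joins complexes III and IV into supercomplexes, gave 0.01 (SE 0.33).

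For subunit 8, Cox8b, the heart and muscle form, read 15.71, 16.16 and 15.48 in WT hearts and 15.54, 15.99 and 15.58 in TG-PKR1 hearts, a difference of -0.08 (SE 0.21). Cox8a, the ubiquitous form, read 14.28, 13.28 and 13.83 in WT hearts and 13.82, 13.05 and 13.52 in TG-PKR1 hearts, a difference of -0.34 (SE 0.28). Replicate B of both genotypes was the highest heart of its group for Cox8b and the lowest for Cox8a. The contrast was 0.26 (exact permutation p = 0.5), and it turned to -0.53 within the single-scan arrays. All 3 contrasts were above 0 over the 6 hearts, with overlap of the hearts for subunits 7A and 8.

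**Figure D3:**
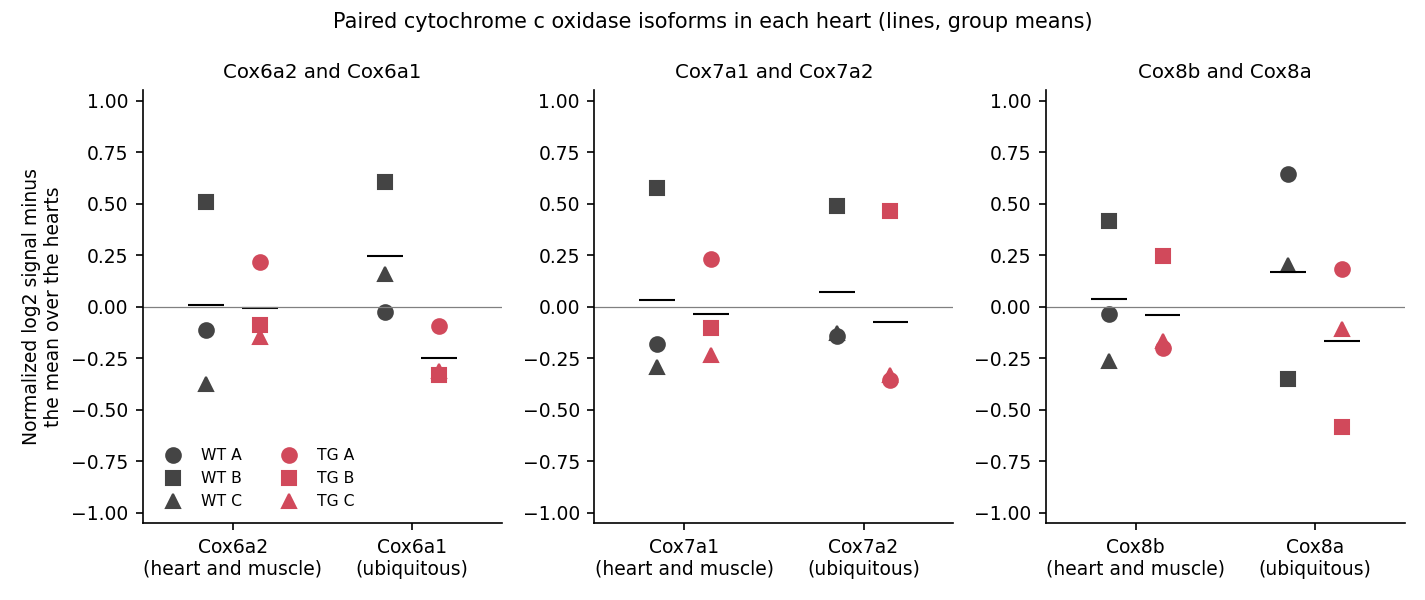
Normalized log2 signal of the 3 pairs of cytochrome c oxidase isoforms in each heart, minus the mean of the gene over the 6 hearts (the 2 probes of Cox7a2 averaged; points, hearts; black lines, group means). The groups part only for Cox6a1, where the 3 TG-PKR1 hearts lie below the 3 WT hearts.

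Among the other subunits of complex IV, Cox7c, a small subunit with a single form, had nearly the same mean difference as Cox6a1 and a wider spread. It read 13.10, 13.94 and 13.23 in WT hearts and 12.84, 13.65 and 12.31 in TG-PKR1 hearts, a difference of -0.49 (SE 0.35) with overlap of the groups. Cox6b1, a subunit on the outer face of the complex, was the highest probe of complex IV, with 11.29, 11.62 and 11.34 in WT hearts and 11.49, 11.99 and 11.42 in TG-PKR1 hearts (0.22, SE 0.20). Its testis isoform Cox6b2 gave -0.11 (SE 0.20), and Cox4i1, the main form of the subunit that carries an allosteric ATP site, gave -0.10 (SE 0.18). Cox7a1 and Cox8b are also transcribed in brown adipocytes, whose marker Ucp1 was among the 19 lower probes. Ucp1 read 14.13, 12.91 and 14.08 in WT hearts and 10.86, 10.93 and 9.63 in TG-PKR1 hearts, a difference of -3.23 (SE 0.42, limma adjusted p = 0.0445). The brown adipocyte list of 9 genes without Cox7a1 and Cox8b had 12 tested probes, of which 1 passed the test. Of these probes, 6 were lower and 6 higher, from -3.23 to 0.49, and the list includes Ppargc1a, a regulator given below. The median of -0.52 (-0.37 with normexp, -0.85 with the processed signal) thus lies between probes that went opposite ways and describes neither set. At a limma unadjusted p under 0.05, 6 were lower and 0 higher, against 1.66% and 0.715% of all probes. The summed signal of the list was 61185 to 100189 in WT hearts and 39163 to 47635 in TG-PKR1 hearts, and all 9 genes had a tested probe. The adipocyte list had 14 tested probes of 9 genes, a median of -0.87 and 3 lower past the test, against 0.095% of all probes. With scaling to the 75th percentile, scan mode as a block or the authors' table, 0 probes passed, so these calls and that of Ucp1 were lost. The adipocyte median was -0.83 with scaling to the 75th percentile. The part of adipocytes in the values of the members was not tested.

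The promoters of the isoform pairs are shown because the forms of a subunit are transcribed from different genes. Cox6a1 was also the only tested member that separated all 6 hearts. A window of 300 bases, from 250 before to 50 after the start of transcription, was read from a RefSeq table of GRCm38.p6 for 64 of the 78 subunit genes. No window was listed for Cox6a2. Capitals mark the letters of an NRF1 site (GCGC, any base and TGCGC in a row), CCGGAAG (a site of ETS factors such as GABPA), GGGCGG (the GC box of Sp1) and TATAAA on either strand, and the gene strand is printed 5′ to 3′. Cox6a1 lies on the minus strand at chr5:115348909-115349208, Cox7a2 on the minus strand at chr9:79759804-79760103, Cox7a1 on the plus strand at chr7:30183921-30184220, Cox8a on the minus strand at chr19:7217567-7217866, and Cox8b on the minus strand at chr7:140900397-140900696.
Cox6a1: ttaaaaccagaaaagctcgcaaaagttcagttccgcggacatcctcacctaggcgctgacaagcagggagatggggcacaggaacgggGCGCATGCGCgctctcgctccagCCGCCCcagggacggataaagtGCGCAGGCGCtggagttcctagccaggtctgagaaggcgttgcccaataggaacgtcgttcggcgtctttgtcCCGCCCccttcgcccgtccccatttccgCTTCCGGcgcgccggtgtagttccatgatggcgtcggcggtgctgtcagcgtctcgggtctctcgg
Cox7a2: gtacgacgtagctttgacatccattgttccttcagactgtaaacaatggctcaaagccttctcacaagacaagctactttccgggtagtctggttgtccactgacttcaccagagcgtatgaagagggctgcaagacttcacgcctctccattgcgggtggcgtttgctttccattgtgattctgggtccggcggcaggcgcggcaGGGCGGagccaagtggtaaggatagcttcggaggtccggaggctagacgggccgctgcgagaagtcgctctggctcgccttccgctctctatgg
Cox7a1: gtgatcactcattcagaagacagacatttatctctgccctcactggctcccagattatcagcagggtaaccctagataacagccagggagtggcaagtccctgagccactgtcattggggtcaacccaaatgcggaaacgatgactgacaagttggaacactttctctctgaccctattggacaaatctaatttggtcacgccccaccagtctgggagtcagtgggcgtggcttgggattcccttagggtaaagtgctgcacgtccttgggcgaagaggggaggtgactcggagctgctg
Cox8a: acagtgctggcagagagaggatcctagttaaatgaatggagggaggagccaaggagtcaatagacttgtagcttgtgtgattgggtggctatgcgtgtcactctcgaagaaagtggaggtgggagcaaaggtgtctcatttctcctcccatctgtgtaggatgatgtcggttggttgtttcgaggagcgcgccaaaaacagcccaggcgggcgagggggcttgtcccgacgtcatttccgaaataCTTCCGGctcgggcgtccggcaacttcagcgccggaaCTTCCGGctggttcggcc
Cox8b: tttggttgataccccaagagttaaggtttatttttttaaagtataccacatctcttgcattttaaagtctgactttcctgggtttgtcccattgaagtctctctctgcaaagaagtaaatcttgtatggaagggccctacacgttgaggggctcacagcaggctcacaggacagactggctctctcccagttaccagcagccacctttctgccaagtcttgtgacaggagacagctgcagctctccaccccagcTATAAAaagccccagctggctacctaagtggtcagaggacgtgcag
The windows of the ubiquitous forms Cox6a1, Cox7a2 and Cox8a hold NRF1, ETS or GC box letters, the window of Cox8b holds TATAAA alone, and that of Cox7a1 holds none of the 4.

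Across the 64 subunit genes with a window, some of these letters were more frequent than across all 27025 genes in the table. The NRF1 letters occurred in 26.6% of the subunit genes, against 5.19% of all genes, and CCGGAAG in 25%, against 9.93%. AAGATGGC, a site of YY1, occurred in 15.6% against 3.19%. TCAAGGTCA, a site of the estrogen-related receptors, occurred in only 2 of the 64 genes, Atp5g3 and Sdhd, or 3.12% against 0.466%. GGGCGG occurred in 39.1% against 38.2%, and TATAAA in 9.38% against 15.7%. Both strands were searched, and none of these motifs contains another. The match of letters is a description of the reference sequence and says nothing of binding in these hearts.

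Complex V, the ATP synthase, had 25 tested probes of 16 genes, a median difference of -0.00, 12 higher and 13 lower in TG-PKR1 hearts, and 0 past the test. The F1 part, which makes ATP, had a median of 0.02 over 8 probes (range -0.28 to 0.28). The peripheral stalk and membrane part had a median of -0.00 over 11 probes (range -0.09 to 0.19). The ring of c subunits, which turns as protons pass, is encoded by Atp5g1, Atp5g2 and Atp5g3, which yield the same mature protein. Atp5g1 read 15.69, 15.41 and 15.48 in WT hearts and 16.02, 15.41 and 15.69 in TG-PKR1 hearts (0.18, SE 0.19). Atp5g3 read 16.95, 17.92 and 16.08 in WT hearts and 17.36, 16.68 and 16.52 in TG-PKR1 hearts (-0.13, SE 0.43). The groups overlapped in both. Atp5g2 gave -0.15 (SE 0.17, TG replicate A missing) and 0.07 (SE 0.22) at its 2 probes.

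Atp5b, the catalytic beta subunit, gave both the highest and the lowest value of complex V at different probes. The probe on chromosome 10 from 127488462 to 127488521 read 15.80, 14.79 and 15.07 in WT hearts and 16.06, 14.69 and 15.75 in TG-PKR1 hearts, a difference of 0.28 (SE 0.38). The probe from 127493148 to 127493207 read 16.99, 18.04 and 16.39 in WT hearts and 17.02 and 16.68 in TG replicates B and C, a difference of -0.28 (SE 0.43). WT replicate B was the lowest of the WT hearts at the first and the highest of all hearts at the second, so the probes of this gene disagreed about single hearts and the sign of the difference rests on the probe. Of the 19 member genes with 2 or more tested probes well above background on all 6 arrays, 11 had opposite signs at their outermost probes. In the 17 with all values, the difference in the ratio of these probes ran from -0.14 to 0.25. In 1 of them, Ndufa7, the ratios of the TG-PKR1 hearts all lay above those of the WT hearts (0.25, exact permutation p = 0.1, not adjusted over the 17 genes).

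The median of each complex in each heart was taken relative to the mean of each probe over the WT hearts. By this measure the hearts differed among themselves by more than the groups did. For complex II the medians were 0.40, -0.37 and 0.05 in WT hearts and 0.37, -0.16 and 0.27 in TG-PKR1 hearts. For complex IV they were -0.12, 0.30 and -0.20 in WT hearts and 0.02, 0.05 and -0.27 in TG-PKR1 hearts. WT replicate B was thus the lowest heart for complex II and the highest for complex IV. For complexes I, III and V the 6 medians lay between -0.12 and 0.16, and for all probes between -0.03 and 0.06. The groups overlapped in every complex.

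The hearts that read high or low together were seldom those of 1 genotype. Over the 104 member probes with all 6 values, the 2 highest hearts were of 1 genotype for 22 probes, or 21.2% against 30% of all probes, and the 2 lowest for 20, or 19.2% against 35.9%. WT replicate B and TG replicate B were the 2 lowest hearts for 26 members, or 25%, against 15.8% of all probes, and the 2 highest for 22, or 21.2% against 17.3%. WT replicate C and TG replicate C were the 2 lowest for 29, or 27.9% against 9.17%. WT replicate A and TG replicate A were the 2 highest for 18, or 17.3% against 11.9%. WT replicate B and TG replicate A, which share a slide, were the 2 highest for 15, or 14.4% against 2.15%. These shares are descriptions, since the members share arrays and a range of signal, and the letters only name the hearts. TG replicate C was the highest heart for 4 members and TG replicate A the lowest for 4, while WT replicate B was the highest for 26 and the lowest for 26.

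Part of this spread followed the brightness of the probes. In the brightest of 3 equal groups of members, the median of WT replicate B relative to the mean of the other hearts was 0.27 and that of WT replicate C was -0.25. In the dimmest group they lay at -0.11 and 0.12. TG replicate A lay at 0.20 and TG replicate C at -0.18 in the brightest group, and both at 0.01 in the dimmest. WT replicate B and TG replicate A, the high ones, were single-scan arrays of the same slide, and WT replicate C, the lowest, was also scanned once. The role of the scanner or slide in these values was not tested.

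The mitochondrial genome encodes core subunits of the same complexes, and 3 of its genes had tested probes. COX2, a core subunit of complex IV, read 16.95, 17.99 and 16.03 in WT hearts and 17.39, 16.70 and 16.59 in TG-PKR1 hearts (-0.10, SE 0.45). CYTB of complex III read 16.51, 17.20 and 15.88 in WT hearts and 16.90, 16.26 and 16.14 in TG-PKR1 hearts (-0.10, SE 0.34), and ND4L of complex I gave -0.05 (SE 0.38). In COX2 and CYTB, WT replicate B was the highest heart and WT replicate C the lowest, as for Atp5g3, and the TG-PKR1 hearts lay within the WT range. The median of the 3 probes was -0.10, and it turned to 0.08 with quantile normalization, 0.09 with normexp and 0.15 with scaling to the 75th percentile.

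Genes that work beside the subunits gave 0 probes past the test in the lists that follow, apart from 1 of the uncoupling proteins, against 0.095% of all probes. The list of 9 chain genes outside the name pattern, such as Cycs (cytochrome c) and Cyc1 (cytochrome c1), had 14 tested probes and a median of 0.02. Assembly factors had 42 probes of 23 genes and a median of 0.04. Subunits listed under older names in the files, among them Ndufv3 and Uqcr10, had 7 tested probes with 0 past the test, between -0.21 and 0.12. The tricarboxylic acid cycle, which supplies NADH and succinate, had 22 probes of 14 genes and a median of 0.11. Of these probes, 19 were higher and 3 lower, against 58.2% of all probes higher, and 19 to 21 were higher under the 6 scalings. Its heart medians, relative to the WT mean of each probe, overlapped. They were 0.17, -0.16 and 0.05 in WT hearts and 0.30, -0.08 and 0.23 in TG-PKR1 hearts, with replicate B the lowest of each group. Carriers of adenine nucleotides, phosphate and energy had 14 probes of 10 genes and a median of 0.04. Mitochondrial ribosomal proteins had 41 probes of 26 genes and a median of 0.07. The uncoupling proteins had 4 probes of 3 genes and a median of -0.23, with Ucp1 alone past the test. Marker lists of endothelial cells, fibroblasts, smooth muscle, macrophages, erythroid cells and skeletal muscle had medians of 0.00, -0.12, -0.09, -0.03, -0.18 and 0.24, with 0 probes past the test. The erythroid median turned to 0.05 with scaling to the 75th percentile.

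Regulators of nuclear respiratory genes, such as Nrf1, Gabpa and the PGC-1 coactivators, had 31 tested probes of 16 genes, a median of 0.06 (-0.02 with scaling to the 75th percentile) and 0 past the test. The smallest p among them was that of Ppargc1b (PGC-1 beta), which read 9.87, 9.40 and 9.78 in WT hearts and 9.99, 10.03 and 10.73 in TG-PKR1 hearts. At this probe all 3 TG-PKR1 hearts lay above the WT hearts, with a difference of 0.56 (SE 0.23), and the limma p was 0.0410 before adjustment and 1.0 after it. Its other 2 probes gave 0.20 (SE 0.18) and 0.06 (SE 0.35), with overlap of the hearts. Ppargc1a (PGC-1 alpha) gave 0.49 (SE 0.28) and 0.43 (SE 0.25) at its 2 probes, with overlap of the hearts. Pprc1, the third coactivator of the family, went the other way, with 8.56, 8.57 and 8.88 in WT hearts and 8.34, 8.50 and 8.41 in TG-PKR1 hearts. All 3 TG-PKR1 hearts lay below the WT hearts, with a difference of -0.25 (SE 0.16) and a limma p of 0.138 before adjustment. At every other regulator probe the hearts overlapped. Over all tested probes with a value in every heart, 2.68% separated with the TG-PKR1 hearts above and 2.73% with them below. Among 31 probes, separation at single probes was therefore not taken as a change of these genes.

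The settings of the analysis moved the medians of the complexes by more than they differed from 0. Under loess, the mean signal, retained outlier spots, the processed signal or the authors' own table, complexes I, III and V lay between -0.00 and 0.07. Scaling to the 75th percentile gave 0.22, 0.25 and 0.23 for complexes I, III and V. Complex II had the highest median and complex IV the lowest under every change of signal and normalization tried. Complexes I and V changed places, and complex II was the lowest without WT replicate B.

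**Figure D4:**
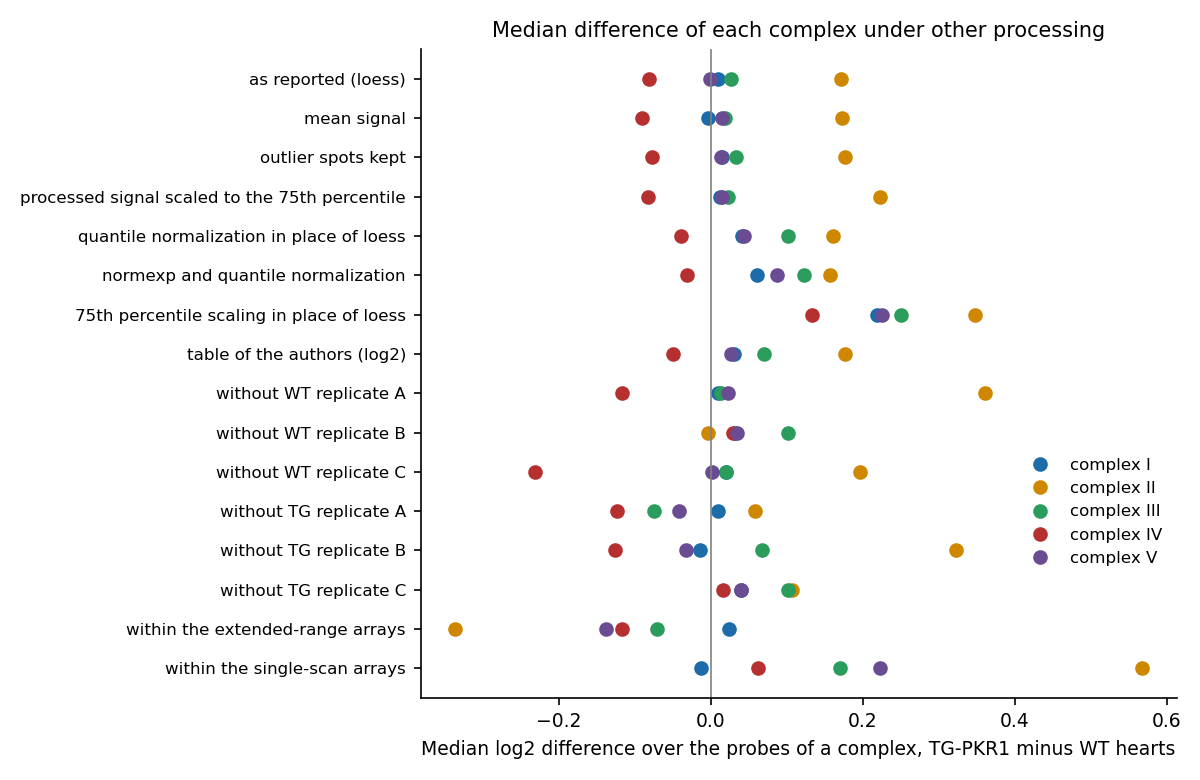
Median log2 difference between TG-PKR1 and WT hearts over the tested probes of each complex (coloured points) under other signals and normalizations, without each heart, and within the arrays of each scan mode. Scaling to the 75th percentile moves all 5 complexes to the right, and the 2 scan modes place complex II at -0.34 and 0.57.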

How the data were processed

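RNA of 6 whole hearts was hybridized to single-dye Agilent arrays. The authors deposited spot intensity values from Agilent Feature Extraction 9.5.1.1, with probe positions on mm8, and a table of log2 values after LOWESS against a median profile. From the deposited median intensity, not background-subtracted, controls and outlier spots were removed. Each array was fitted by loess (span 0.3, 4 iterations) to the median profile, replicate spots were averaged per probe, and the 20000 brightest probes by median entered the fit. limma 3.58.1 (lmFit, eBayes), run under R 4.3.3 and the data.table package (version 1.17.8), compared the groups over all 20000 probes, with Benjamini-Hochberg adjustment at 0.05. Exact permutation tests were two-sided. The procedure was tested on simulated data.

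The members and gene lists were chosen with earlier results of these data known. Members named by rule were the 10 with the smallest p, the extremes of each complex, the isoform sets and the Sdh genes. Some isoforms are given by their difference and SE alone, and 1 member is not reported here. Of 116 probes, 101 were matched to RefSeq (GRCm38.p6) by accession, 12 by name and 3 by synonym. All 6 value columns of the table were matched to hearts. The number of arrays limits precision, and the effect of signal over background on precision was not tested. The alternatives were other signals, normalizations, filters, variance models, scan mode, slide, SAM, the authors' table, membership and each heart left out.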

Additional observations from a re-analysis of the deposited data

How the results depend on the processing

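No paired analysis was possible because no label ties a WT heart to a TG-PKR1 heart. Under every alternative with a test, 0 members passed it, and the smallest adjusted p of a member was 0.799, without TG replicate B. Over all probes, 33 were lower with quantile normalization, 31 with trend in eBayes, 28 at a threshold of 0.1, 54 with SAM and 8 without TG replicate B. The count was 0 with scaling to the 75th percentile, all probes, the filter on 3 arrays well above background, the authors' table, scan mode as a block, and without WT replicate A or C or TG replicate A or C. Slide as a random block could not be estimated, because only 1 slide held more than 1 array.

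With normexp the median was 0.070 for all members and 0.061 for complex I. With scaling to the 75th percentile it was 0.21 for all members, 0.22 for complex I, 0.35 for II, 0.25 for III, 0.13 for IV and 0.23 for V. Within the extended-range arrays, complex II was -0.34, V -0.14, the Cox7a1 contrast -0.20 and the Cox8b contrast 1.06. Within the single-scan arrays, all members gave 0.076, complex II 0.57, III 0.17, V 0.22, the Cox7a1 contrast 0.63 and the Cox8b contrast -0.53. On the slide with both groups (TG replicate A minus WT replicate B), complex II was 0.83, III 0.18, the Cox7a1 contrast 0.50 and the Cox8b contrast -1.15.

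Leaving out each heart in turn gave -0.03 to 0.04 for all members, -0.01 to 0.04 for complex I, -0.00 to 0.36 for II, -0.07 to 0.10 for III, -0.23 to 0.03 for IV and -0.04 to 0.04 for V. It gave 0.33 to 0.55 for the Cox6a2 contrast, -0.20 to 0.38 for Cox7a1 and -0.09 to 0.70 for Cox8b. The Cox8b contrast was -0.02 without WT replicate A and -0.093 without TG replicate B, and the Cox7a1 contrast was -0.20 without TG replicate A. The cause of these shifts was not tested. Of 249 values of the comparison under alternatives, 226 were the same or stayed within the spread between hearts. Another 17 moved further and 6 were sign changes of the Cox7a1 and Cox8b contrasts. The 226 include the counts of members called, which were 0 in every setting and have no spread. Among the 226 and the 17 were other sign changes, mostly of medians near 0. Of 695 values of single members, 640 stayed within the spread between hearts, and 89 changed sign. Both tallies include settings that changed only the variance model or the threshold. Differences could not move under those settings, so these values are no measure of stability.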
